A study of Mus musculus with 12 samples.

Results

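Ttr, Kl, Ccdc153 and Sntn are 4 mouse genes known from the epithelia that line the brain ventricles. They were followed here through 12 RNA-seq libraries of sorted dentate gyrus cells, and they are 4 of the 10749 genes in the deposited table. They were picked because earlier results of these data had shown how they differ between the sorted populations, so their own group differences are given as a description, with no test. All animals were 8 weeks old and carried the LPA1-GFP reporter, a transgene in which regulatory sequence of Lpar1, the gene of a lysophosphatidic acid receptor, drives green fluorescent protein (GFP). Per the labels, the line came from a mixed FVB/N-Swiss Webster stock and was rederived into C57BL/6. Stem libraries held dentate gyrus cells positive for LPA1-GFP, for the growth factor receptor EGFR and for the membrane glycoprotein Prominin-1. Progenitor libraries held GFP-positive cells that lacked EGFR, Prominin-1 or both, and niche libraries held GFP-negative cells, with n = 4 libraries in each of the 3 populations. RNA of 1000 cells was amplified for each library. Whether a replicate was 1 animal or a pool is not stated, so the p-values given for other genes measure the spread between libraries, part of which may be technical.

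The choroid plexus is a folded secretory epithelium in the ventricles that makes cerebrospinal fluid. Its cells secrete transthyretin, the product of Ttr, which carries thyroid hormone and, bound to retinol-binding protein, retinol. Kl encodes klotho, a membrane protein that serves as co-receptor for the hormone FGF23 and is strongly produced by kidney tubules and choroid plexus. Ependymal cells form the ventricle wall and beat tufts of motile cilia. Ccdc153 encodes a coiled-coil protein of the ciliary dynein regulatory complex (also called DRC12), and Sntn encodes sentan, a protein of the tip of motile cilia. Both structures lie next to the hippocampus but outside the dentate gyrus.

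Depth ran from 7597256 to 22854036 reads per library, and 8037 to 9700 genes were above 0 per library. Levels are RPKM (reads divided by exon length in kilobases and by the read total), divided by a scaling factor for RNA composition (trimmed mean of M-values, TMM), and can therefore be set side by side between genes. Intervals and floors drawn from reads cover counting error only, because amplified reads without molecular identifiers are not independent molecules. Of the genes that define the labels choroid plexus and ependyma elsewhere, Foxj1, Folr1, Otx2, Enpp2, Kcnj13, Aqp1, Rarres2, Tmem212 and Rsph1 are not analysed here, so the cell type of origin could not be checked against them. Marker lists of other cells differed between the populations. Niche libraries had the widest mix: the summed level of 4 red cell genes was 224 to 2053 in stem libraries, 575 to 3389 in progenitor libraries and 37220 to 1079000 in niche libraries. The sum of 10 endothelial genes was 33.2 to 73.3 in stem libraries, 78.3 to 133 in progenitor libraries and 243 to 1141 in niche libraries. The sum of 7 mature neuron genes was 19.5 to 38.0 in stem libraries, 31.7 to 72.9 in progenitor libraries and 125 to 774 in niche libraries. The part that these cells had in the differences of the 4 genes was not tested, and fewer cells of a type cannot be told apart from less RNA per cell in any of these sorted pools.

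Ttr was by far the most abundant of the 4 genes, and it was graded across the populations. The gene lies on the plus strand of chromosome 18, at 20665280 to 20674321 (GRCm38). Its level was 69.2, 52.9, 20.02 and 13.1 RPKM in stem replicates 1 to 4, 77.8, 148, 478 and 172 in progenitor replicates and 9371, 4105, 9172 and 6800 in niche replicates. Before TMM scaling the niche values were 3915, 3368, 8794 and 5938 RPKM, so scaling raised niche replicate 1 the most. That library also had the highest red cell sum, 1079000. After scaling, the highest stem library lay just under the lowest progenitor library. Before it, stem replicate 1 (85.5 RPKM) lay above progenitor replicate 1 (71.4 RPKM), so these 2 populations overlapped. Every niche library was above every other library with and without scaling. Mean levels were 38.8 ± 26.7 RPKM in stem, 219 ± 177 in progenitor and 7362 ± 2465 in niche libraries (SD, n = 4). The stem mean was 0.527% of the niche mean and 17.7% of the progenitor mean, and the progenitor mean was 2.98% of the niche mean. Differences of the log2(RPKM + 1) values were -2.44 for stem over progenitor, -7.75 for stem over niche and -5.31 for progenitor over niche.

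The read counts put these levels far above the counting floor in all 12 libraries. Ttr was counted 906, 747, 370 and 238 times in the stem libraries (replicates 1 to 4), 1294, 3512, 14528 and 5965 in progenitor replicates and 57938, 78991, 140573 and 54989 in niche replicates. Ranked by level among the listed genes, Ttr stood at places 1012, 1289, 2371 and 3054 in the stem libraries, 1132, 509, 178 and 454 in the progenitor libraries and 17, 23, 13 and 19 in the niche libraries. Levels varied 5.28-fold within stem, 6.14-fold within progenitor and 2.28-fold within niche. By this ratio of the highest to the lowest library, the 2 GFP-positive populations were the less uniform ones. Without progenitor replicate 3, the highest progenitor library, the log2 difference of stem over progenitor was -1.96. A separate gene model, Gm16090, lies antisense and ends just upstream of Ttr without overlapping it.

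**Figure D1:**
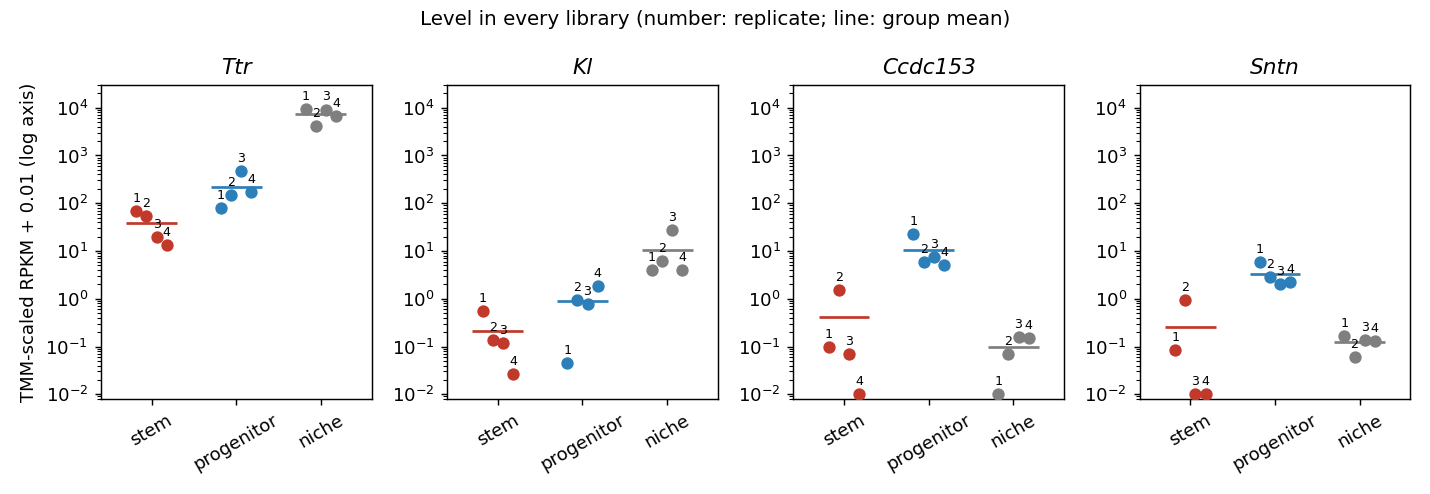
Level of Ttr, Kl, Ccdc153 and Sntn in the stem, progenitor and niche libraries. The log axis shows TMM-scaled RPKM + 0.01, points carry their replicate number and bars are group means (n = 4). Ttr and Kl were highest in niche libraries, whereas Ccdc153 and Sntn were highest in progenitor libraries.

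Kl was highest in the niche libraries as well, at a level 92.9 to 2391 times below that of Ttr in the 10 libraries with more than 3 Kl reads. The gene lies on chromosome 5, at 150952607 to 150993817, plus strand. Its level was 0.535, 0.124, 0.111 and 0.0161 RPKM in stem replicates 1 to 4, 0.0351, 0.921, 0.778 and 1.86 in progenitor replicates and 3.92, 6.27, 26.9 and 4.04 in niche replicates. Stem and progenitor libraries overlapped, because progenitor replicate 1 lay below 3 of the 4 stem libraries, and all niche libraries lay above both after TMM scaling. Before scaling, niche replicate 1 was at 1.64 RPKM, under progenitor replicate 4 at 2.31 RPKM. Means were 0.197 ± 0.231 RPKM in stem, 0.898 ± 0.748 in progenitor and 10.3 ± 11.1 in niche libraries (SD, n = 4). The log2 differences were -0.59 for stem over progenitor, -2.83 for stem over niche and -2.24 for progenitor over niche. These sizes depend on the pseudocount at such low levels: with 4 RPKM they were -0.21, -1.51 and -1.30, and voom on the reads gave -2.23, -6.12 and -3.89. One library carried much of the niche mean: without niche replicate 3 the difference was -2.32 for stem over niche and -1.73 for progenitor over niche, and the niche mean was 4.74 ± 1.32 RPKM (SD, n = 3).

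The depth behind Kl was thin in the GFP-positive cells. Its reads numbered 24, 6, 7 and 1 in stem replicates 1 to 4 and 2, 75, 81 and 220 in progenitor replicates, against 83, 413, 1413 and 112 in niche replicates. Stem replicate 4 and progenitor replicate 1 lay under the floor of 3 reads, so no level can be read there. In the other libraries the ratio of Ttr to Kl was 129, 426 and 181 in stem replicates 1 to 3, 160, 614 and 92.9 in progenitor replicates 2 to 4 and 2391, 655, 341 and 1682 in niche replicates 1 to 4. These ratios overlapped between all 3 populations, and the ratio was not constant within any of them. Across the 12 libraries the log2 levels of Ttr and Kl had a Pearson r of 0.88 and a Spearman rho of 0.89, a description over libraries that share 3 populations.

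Ccdc153 and Sntn followed another order: both were highest in the progenitor libraries and near the counting floor in the niche libraries. Ccdc153 lies on chromosome 9, at 44240676 to 44247306, plus strand. Pdzd3 lies directly beyond that end on the other strand, so reads past the end of Ccdc153 could be shared where counting ignored strand. The level of Ccdc153 was 0.0857, 1.51, 0.0607 and 0 RPKM in stem replicates 1 to 4, 22.5, 5.76, 7.499 and 5.19 in progenitor replicates and 0, 0.0583, 0.146 and 0.139 in niche replicates. All progenitor libraries lay above all others, while stem and niche libraries overlapped. Means were 0.415 ± 0.732 RPKM in stem, 10.3 ± 8.26 in progenitor and 0.0859 ± 0.0698 in niche libraries (SD, n = 4). Without progenitor replicate 1 the progenitor mean was 6.15 ± 1.20 RPKM (SD, n = 3). The log2 differences were -2.87 for stem over progenitor, 0.27 for stem over niche and 3.14 for progenitor over niche. In reads, Ccdc153 had 1, 19, 1 and 0 in stem replicates 1 to 4, 334, 122, 203 and 160 in progenitor replicates and 0, 1, 2 and 1 in niche replicates. A count of 0 allows a level of up to 0.185 RPKM in stem replicate 4 and 0.545 RPKM in niche replicate 1.

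Sntn showed the same order at a lower level. It lies on chromosome 14, at 13670876 to 13683148, plus strand. Its level was 0.0754, 0.909, 0 and 0 RPKM in stem replicates 1 to 4, 5.82, 2.90, 1.98 and 2.25 in progenitor replicates and 0.160, 0.0513, 0.129 and 0.122 in niche replicates. Every progenitor library was above every other library here too, and stem replicate 2 was the only stem library with more than 1 read. Its reads numbered 1, 13, 0 and 0 in stem replicates 1 to 4, 98, 70, 61 and 79 in progenitor replicates and 1, 1, 2 and 1 in niche replicates. Means were 0.246 ± 0.444 RPKM in stem, 3.24 ± 1.76 in progenitor and 0.115 ± 0.0458 in niche libraries (SD, n = 4), with log2 differences of -1.74, 0.10 and 1.85 for stem over progenitor, stem over niche and progenitor over niche. Without stem replicate 2, stem over niche turned to -0.05 for Ccdc153 and -0.12 for Sntn, so these 2 genes give no order between stem and niche cells.

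Ccdc153 and Sntn were highest in the same population. The ratio of Ccdc153 to Sntn was 3.88, 1.98, 3.78 and 2.30 in progenitor replicates 1 to 4, and stem replicate 2 was high for both. Progenitor replicate 3 lay above replicates 2 and 4 for Ccdc153 (7.499 RPKM) but was the lowest progenitor library for Sntn (1.98 RPKM). Over the 12 libraries the log2 levels of the 2 genes had a Pearson r of 0.99 and a Spearman rho of 0.84. This is a description over libraries that share 3 populations, on which both genes were picked. All stem and niche libraries but stem replicate 2 were under the floor of 3 reads for both. Across the pairs, Pearson r was -0.27 for Ttr with Ccdc153, -0.25 for Ttr with Sntn, -0.37 for Kl with Ccdc153 and -0.35 for Kl with Sntn, with Spearman rho of 0, 0.23, -0.1 and 0.03 in the same order. The 4 genes were thus 2 pairs with different highest populations, and the progenitor library with the most Ccdc153 and Sntn, replicate 1, was the one with the least Ttr and Kl.

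Because testing needed at least 4 libraries with 10 reads or more, scaled to the median library, it matters through which libraries each of the 4 passed. Ttr reached that level in all 12 libraries. Kl reached it in 1 stem, 3 progenitor and 4 niche libraries. Ccdc153 and Sntn each reached it in 1 stem, 4 progenitor and 0 niche libraries, so both passed mainly through the population in which they were high. Non-overlapping groups were found for 3 of the 4 genes with stem below progenitor, where 13.2% of the 8361 tested genes had stem libraries entirely below progenitor libraries. For stem below niche it was 2 of 4 beside 10.4% of tested genes, for progenitor below niche 2 of 4 beside 6.81%, and for progenitor above niche 2 of 4 beside 8.80%. All these counts use TMM-scaled levels. Before scaling, Ttr overlapped between stem and progenitor libraries, and Kl overlapped between progenitor and niche libraries. Since the genes were chosen on these contrasts, nothing is read from these counts.

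The stretches just upstream of 3 of the genes are shown because Ccdc153 and Sntn were both highest in progenitor libraries. Cilia genes are also known targets of RFX and forkhead factors such as FOXJ1. Sequences are the 250 bases before the gene's start in RefSeq annotation of GRCm38.p6, plus strand, 5′ to 3′, and capitals mark motif matches. The Kl stretch is chr5:150952357-150952606, the Ccdc153 stretch is chr9:44240427-44240676 and the Sntn stretch is chr14:13670626-13670875.
Ccdc153: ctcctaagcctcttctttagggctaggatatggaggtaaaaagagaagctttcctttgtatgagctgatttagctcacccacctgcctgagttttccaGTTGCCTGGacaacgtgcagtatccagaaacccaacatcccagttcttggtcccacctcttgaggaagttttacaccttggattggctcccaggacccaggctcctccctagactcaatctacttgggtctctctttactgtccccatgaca
Sntn: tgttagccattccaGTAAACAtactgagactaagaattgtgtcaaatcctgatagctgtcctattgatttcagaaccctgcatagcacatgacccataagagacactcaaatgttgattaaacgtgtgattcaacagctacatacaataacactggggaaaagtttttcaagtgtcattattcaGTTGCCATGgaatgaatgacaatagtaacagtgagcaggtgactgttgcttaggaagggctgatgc
Kl: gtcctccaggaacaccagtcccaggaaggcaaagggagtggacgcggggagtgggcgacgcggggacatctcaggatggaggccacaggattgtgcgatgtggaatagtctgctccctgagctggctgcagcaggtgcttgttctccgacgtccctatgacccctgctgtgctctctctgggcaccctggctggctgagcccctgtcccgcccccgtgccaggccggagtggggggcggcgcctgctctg

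Both cilia genes held the letters GTTGCC, the core of a binding site of RFX factors, at base -152 in Ccdc153 and base -66 in Sntn, counted from the start. In both genes this run was followed by 2 further bases and a G (GTTGCCNNG), a longer form that was noticed in these sequences and therefore searched for afterwards. Sntn also held the forkhead letters GTAAACA at base -236, and the second forkhead form searched, ATAAACA, was in none of the 3. Both strands were searched, and the longer RFX form contains the shorter. Over all 32851 RefSeq windows of this length, from 27025 genes, 10.4% held GTTGCC, 4.09% held GTTGCCNNG, 3.17% held GTAAACA and 4.16% held ATAAACA. Among the 36 windows of other tested motile cilia genes, 15 (41.7%) held GTTGCC, 12 (33.3%) held GTTGCCNNG, 2 (5.56%) held GTAAACA and 0 held ATAAACA. Of the 33 windows of other tested choroid plexus genes, 2 (6.06%) held GTTGCC and 1 (3.03%) held GTTGCCNNG. A match is a run of letters and not a shown binding site, and the Kl stretch had 0 matches to any of these motifs.

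**Figure D2:**
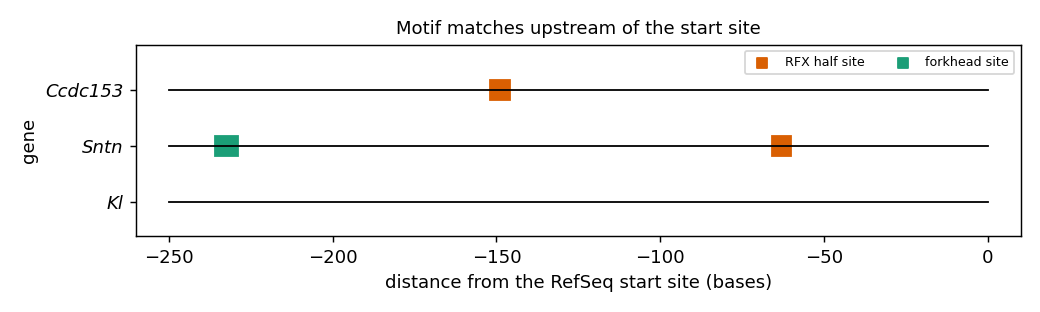
Places of the RFX letters and the forkhead letters in the stretches upstream of Ccdc153, Sntn and Kl. The horizontal axis is the distance in bases from the RefSeq start site, and each box is 1 match on either strand, with the RFX run of Ccdc153 at -152, that of Sntn at -66 and the forkhead run of Sntn at -236.

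Among other genes on the choroid plexus list, 15 of 32 tested were lower in stem than in niche libraries, and 17 were not called. The list held 36 genes in the table besides Ttr and Kl, of which 32 passed the filter, and it was chosen with earlier results of these data known. In limma's test across all 8361 genes with Benjamini-Hochberg adjustment, which gives every adjusted p below, 15 of the 32 (46.9%) fell in stem over niche and 0 rose, where 10.7% of all tested genes fell and 10.9% rose (21.6% in either direction). The 15 included Drc7, which is named for the ciliary dynein regulatory complex (adjusted p = 0.0118). The median log2 fold change was -1.55 over the list (-2.12 with genes at 0 throughout a population set to their floor) and 0.09 over all tested genes. In progenitor over niche, 7 fell and 3 rose, against 5.76% and 5.67% of all tested genes (11.4% in either direction), with a median of -0.77 beside 0.15. In stem over progenitor, 5 fell and 0 rose, against 3.38% and 3.71% (7.09% in either direction), with a median of -0.49 beside -0.06. Of the 2 counts of 0 rising genes, limma's unadjusted p was under 0.05 for 0 genes in stem over niche and 1 gene in stem over progenitor, and limma's voom on the recovered reads also called 0 in both. The list sum without Ttr and Kl was 145, 128, 117 and 97.3 RPKM in stem replicates 1 to 4, 537, 249, 260 and 279 in progenitor replicates and 1014, 359, 750 and 375 in niche replicates.

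Kcne2, Slc4a10 and Car12, which encode membrane proteins of ion and acid-base transport, were among the genes that fell. Kcne2, the potassium channel subunit of the apical choroid plexus membrane, was at 1.10, 0.205, 0.0390 and 0 RPKM in stem replicates 1 to 4, 0.0867, 0.0910, 1.97 and 0 in progenitor replicates and 62.1, 11.6, 24.6 and 22.9 in niche replicates. It fell in stem over niche (log2 fold change -4.37 ± 0.55 SE, adjusted p = 4.1e-05) and in progenitor over niche (-4.27 ± 0.55, adjusted p = 1.0e-04). Slc4a10, a sodium-dependent bicarbonate transporter, averaged 0.878 ± 0.721 RPKM in stem, 0.619 ± 0.528 in progenitor and 32.1 ± 22.7 in niche libraries and fell in both contrasts with niche (adjusted p = 1.2e-04 and 1.6e-04). Car12, a membrane carbonic anhydrase, averaged 0.203 ± 0.116 RPKM in stem, 0.449 ± 0.228 in progenitor and 21.3 ± 15.4 in niche libraries and also fell in both (adjusted p = 7.0e-05 and 2.6e-04). None of the niche libraries overlapped with another population for these 3 genes.

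Krt18, Wfdc2, Sostdc1 and Igfbp2 also fell in stem over niche. Krt18, an intermediate filament of simple epithelia, had 0 reads in every stem library and averaged 0.190 ± 0.187 RPKM in progenitor libraries. In niche replicates 1 to 4 it was at 79.4, 20.1, 19.6 and 2.94 RPKM. Against the mean floor of 3 reads per library it was at least 180-fold lower in stem (adjusted p = 2.6e-04), and at least 84.0-fold lower without niche replicate 1. Wfdc2, a secreted protease inhibitor of epithelia, averaged 0.207 ± 0.242 RPKM in stem, 1.99 ± 2.34 in progenitor and 27.6 ± 29.0 in niche libraries, and niche replicate 1 alone was at 70.8. Sostdc1, a secreted inhibitor of BMP and Wnt signalling, averaged 1.96 ± 2.92 RPKM in stem, 1.60 ± 1.499 in progenitor and 32.9 ± 31.8 in niche libraries. Both fell in stem over niche (adjusted p = 2.0e-04 for Wfdc2 and 0.00217 for Sostdc1) and in progenitor over niche (0.00414 and 0.00488). Igfbp2, a binding protein of insulin-like growth factors that fibroblasts of the meninges also make, was graded like Ttr, at 2.68 ± 1.81 RPKM in stem, 15.8 ± 9.84 in progenitor and 55.1 ± 24.0 in niche libraries. Its fall in progenitor over niche (adjusted p = 0.0309) was lost in 5 of 21 alternative settings, with an adjusted p of up to 0.101, among them those without progenitor replicate 2, 3 or 4. Clic6, a chloride channel protein of this epithelium, had 0 reads in all stem libraries and was not called. It was at 0.0394, 0.440, 1.34 and 1.06 RPKM in progenitor replicates 1 to 4 and 0, 0.136, 13.0 and 0.0810 in niche replicates. Calml4, a calmodulin-like protein, was at 109, 0.0736, 79.5 and 11.7 RPKM in niche replicates 1 to 4, so these 2 genes varied widely between niche libraries.

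**Figure D3:**
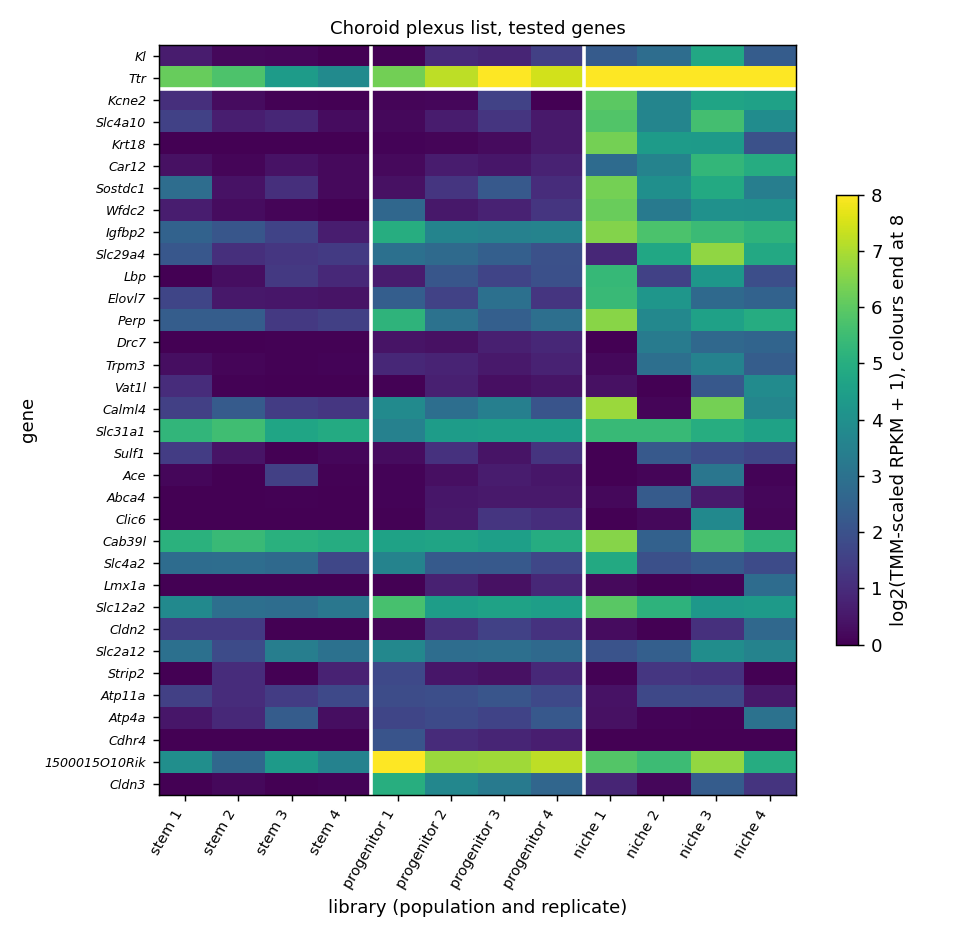
Tested genes of the choroid plexus list in each library, as log2(TMM-scaled RPKM + 1), with colours ending at 8. Kl and Ttr stand above the white line, other genes are ordered by their progenitor over niche difference, and stem, progenitor and niche columns run left to right. Kcne2, Slc4a10, Krt18 and Car12 are bright only in niche columns, whereas Cldn3 and 1500015O10Rik are brightest in progenitor columns.

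A smaller set on the choroid plexus list was highest in progenitor cells instead. 1500015O10Rik, which encodes the secreted peptide augurin (also called Ecrg4), was at 14.4, 5.31, 19.5 and 10.8 RPKM in stem replicates 1 to 4, 289, 110, 114 and 146 in progenitor replicates and 57.4, 43.7, 104 and 29.8 in niche replicates. It fell in stem over progenitor (log2 fold change -3.63 ± 0.46 SE, adjusted p = 1.8e-04) and rose in progenitor over niche (1.5 ± 0.46, adjusted p = 0.0440), a call lost in 14 of 21 alternatives (adjusted p up to 0.127), including those without any 1 progenitor library, stem replicate 1 or 4, or niche replicate 2 or 4. Cldn3, a tight junction protein, averaged 0.0476 ± 0.0648 RPKM in stem, 14.3 ± 11.7 in progenitor and 1.56 ± 1.73 in niche libraries, and fell in stem over progenitor (adjusted p = 9.4e-04) and rose in progenitor over niche (adjusted p = 0.00789). Cdhr4, a cadherin-related gene, had 0 reads in all stem and niche libraries and was at 3.21, 0.995, 0.764 and 0.604 RPKM in progenitor replicates 1 to 4. It thus passed the filter only through the population in which it was high, and it was not tested with any 1 progenitor library left out. It was at least 15.6-fold lower in stem than in progenitor (adjusted p = 0.0359), a call lost in 6 of 16 alternatives (adjusted p up to 0.0888), including those without any 1 stem library, and at least 9.94-fold higher in progenitor than in niche libraries (adjusted p = 0.0269), lost in 2 of 16 (up to 0.0893). Without progenitor replicate 1 these bounds were 8.82-fold and 5.62-fold. In all 3 genes, progenitor replicate 1 was the highest library, as it was for Ccdc153 and Sntn.

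Most other motile cilia genes were not called in the direction of the progenitor peak of Ccdc153 and Sntn at this threshold. The test misses most small changes: simulated log2 changes of 1 were called in 8% of cases in stem over progenitor and 6% in progenitor over niche. Besides these 2, the ependyma and motile cilia list held 48 genes in the table, and 34 passed the filter. In progenitor over niche, 3 of the 34 (8.82%) rose and 0 fell, beside 5.67% and 5.76% of all tested genes, with a median log2 fold change of 0.64 beside 0.15 over all tested genes. In stem over progenitor, 2 (5.88%) fell and 0 rose, beside 3.38% and 3.71%, with a median of -0.45 beside -0.06. In stem over niche, 1 rose and 2 fell, beside 10.9% and 10.7%, with a median of 0.16 beside 0.09. At limma's unadjusted p under 0.05, 9 rose and 1 fell in progenitor over niche and 0 rose and 7 fell in stem over progenitor, while voom called 5 and 0 in the first and 0 and 3 in the second. The list sum without Ccdc153 and Sntn was 174, 132, 212 and 187 RPKM in stem replicates 1 to 4, 329, 228, 240 and 243 in progenitor replicates and 182, 118, 241 and 187 in niche replicates. Progenitor sums overlapped with niche sums and lay above stem sums.

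Ppp1r36, a regulatory subunit of protein phosphatase 1, was the list gene nearest to the pair. It was at 1.38, 1.34, 0.0465 and 0 RPKM in stem replicates 1 to 4, 18.1, 5.92, 6.64 and 9.85 in progenitor replicates and 0.278, 0.0446, 0 and 0.425 in niche replicates. It fell in stem over progenitor (log2 fold change -2.72 ± 0.46 SE, adjusted p = 0.00189) and rose in progenitor over niche (3.12 ± 0.46, adjusted p = 3.6e-04), in all alternatives run. Morn2, a repeat protein of ciliated and male germ cells, averaged 49.2 ± 14.9 RPKM in stem, 62.3 ± 7.89 in progenitor and 19.4 ± 13.9 in niche libraries. It rose in stem over niche (adjusted p = 0.0441) and in progenitor over niche (adjusted p = 0.0277), calls lost in 14 and 4 of 21 alternatives (adjusted p up to 0.117 and 0.0771). The first was lost without any 1 stem or progenitor library or niche replicate 2 or 3, and the second without progenitor replicate 2, 3 or 4. Armc3, an armadillo repeat protein, averaged 1.33 ± 0.438 RPKM in progenitor and 0.0136 ± 0.0271 in niche libraries (adjusted p = 0.0413). This call was lost in 13 of 21 alternatives (up to 0.0961), including those without any 1 progenitor or niche library or stem replicate 1.

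2 cilia genes, Dnaic1 and Iqck, were lower in stem than in niche libraries. Dnaic1, an intermediate chain of the outer dynein arm, averaged 0.430 ± 0.195 RPKM in stem, 4.10 ± 1.505 in progenitor and 13.7 ± 10.2 in niche libraries. It fell in stem over niche (log2 fold change -3.08 ± 0.52 SE, adjusted p = 4.9e-04) and in stem over progenitor (-1.80 ± 0.52, adjusted p = 0.0459), the second of which was lost in 12 of 21 alternatives (up to 0.197), including those without any 1 stem or progenitor library. Iqck, a calmodulin-binding motif gene, averaged 6.51 ± 2.46 RPKM in stem and 24.8 ± 8.17 in niche libraries and fell in stem over niche (adjusted p = 0.00858). Dynlrb2, a dynein light chain, was at 62.8, 0.511, 20.7 and 0.608 RPKM in niche replicates 1 to 4, against 51.0, 14.4, 15.1 and 19.5 in progenitor replicates, and was not called. Rsph4a, a radial spoke head protein, was above 1 RPKM in niche replicate 3 alone, at 4.45. Dynlrb2 and Rsph4a thus varied widely between niche libraries, but they were named after their values were seen and do not stand for the list.

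**Figure D4:**
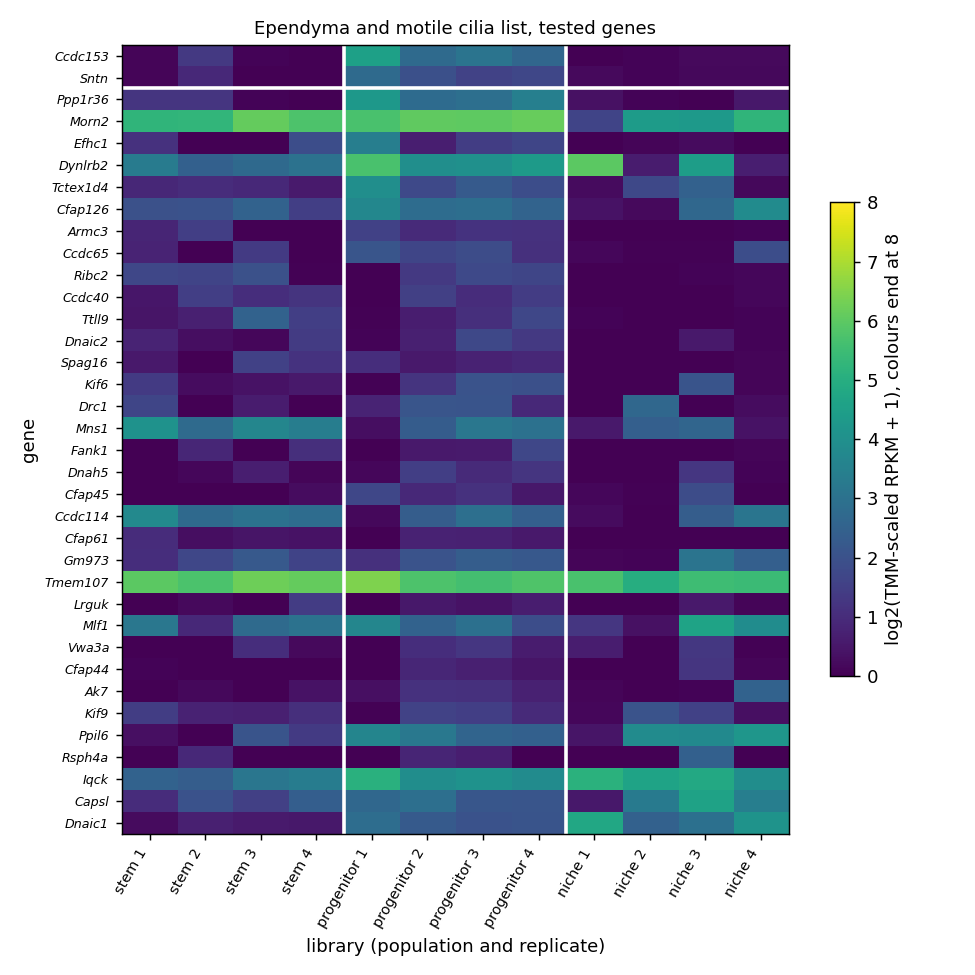
Tested genes of the ependyma and motile cilia list in each library, as log2(TMM-scaled RPKM + 1). Ccdc153 and Sntn stand above the white line, with stem, progenitor and niche columns left to right. Ppp1r36 shares their bright progenitor columns, while Dnaic1 and Iqck are brighter in niche than in stem columns.

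**Figure D5:**
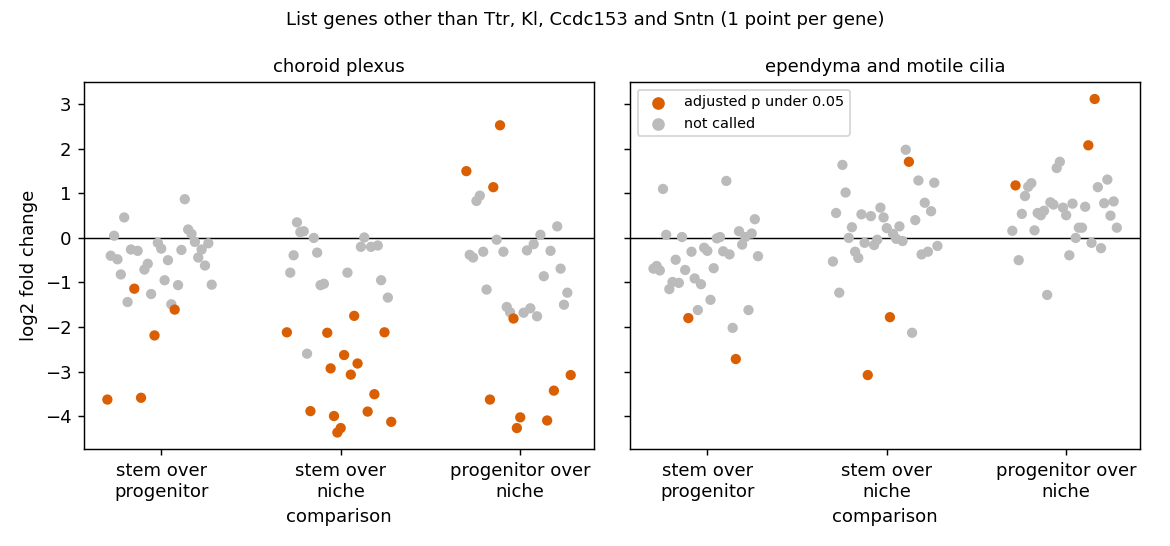
Log2 fold changes of the 32 choroid plexus and 34 cilia list genes other than Ttr, Kl, Ccdc153 and Sntn, for stem over progenitor, stem over niche and progenitor over niche. Each point is 1 gene, orange where the adjusted p is under 0.05. The 15 orange choroid plexus points of stem over niche all lie below 0.

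Of 10 tested regulators of multiciliated cells, 2 rose in stem over niche, 1 rose in progenitor over niche, 0 fell in either, and 0 were called in stem over progenitor. By limma's unadjusted p under 0.05, 1 fell in each contrast with niche and 1 rose in stem over progenitor, and voom added 0 calls. Over all tested genes, 10.9% rose in stem over niche and 5.67% in progenitor over niche, so 2 and 1 of 10 are not set apart from these shares. Sass6, the cartwheel protein of new centrioles, averaged 14.0 ± 0.738 RPKM in stem, 7.74 ± 0.610 in progenitor and 1.13 ± 1.39 in niche libraries (stem over niche adjusted p = 1.9e-04, progenitor over niche 0.00443). Plk4, the kinase that starts centriole duplication, averaged 5.17 ± 1.64 RPKM in stem and 1.17 ± 0.637 in niche libraries (adjusted p = 0.0244), a call lost in 6 of 21 alternatives (up to 0.0713), among them those without stem replicate 1, 3 or 4 or niche replicate 2. Both genes also serve centriole duplication in dividing cells. The summed level of 7 dividing cell genes was 717 to 1193 in stem libraries, 226 to 344 in progenitor libraries and 14.1 to 112 in niche libraries, and its part in these 2 results was not tested.

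The thyroid hormone and retinol list had 17 tested genes, of which 4 fell and 1 rose in stem over niche, 1 fell and 2 rose in progenitor over niche, and 1 fell in stem over progenitor. Over all tested genes these shares were 10.7% lower and 10.9% higher, 5.76% lower and 5.67% higher, and 3.38% lower. Slco1c1, the thyroxine transporter of brain vessels, astrocytes and choroid plexus, averaged 24.8 ± 8.06 RPKM in stem, 38.4 ± 17.1 in progenitor and 160 ± 35.4 in niche libraries (stem over niche adjusted p = 1.6e-04, progenitor over niche 0.00188). Thrb, a thyroid hormone receptor, averaged 1.28 ± 0.855 RPKM in stem and 6.29 ± 4.59 in niche libraries (adjusted p = 0.0318), a call lost in 8 of 21 alternatives (up to 0.126), among them those without stem replicate 2, 3 or 4 or niche replicate 4. Klf9, a thyroid hormone-responsive transcription factor, averaged 16.9 ± 2.89 RPKM in stem and 43.7 ± 7.88 in niche libraries (adjusted p = 0.00704, 0.145 when libraries were scaled by their totals alone).

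Aldh1a2, a retinaldehyde dehydrogenase of the meninges, averaged 3.77 ± 1.96 RPKM in stem, 5.35 ± 2.61 in progenitor and 0.417 ± 0.413 in niche libraries. It rose in stem over niche (adjusted p = 0.0262, up to 0.0824 without stem replicate 1, 2 or 3 or niche replicate 2) and in progenitor over niche (adjusted p = 0.0118). Crabp1, a cellular retinoic acid-binding protein, had 0 reads in all stem and niche libraries and averaged 3.03 ± 2.68 RPKM in progenitor libraries. It thus passed the filter only through the population in which it was high, and it was not tested with any 1 progenitor library left out. It was at least 9.96-fold lower in stem than in progenitor (adjusted p = 0.00684) and at least 6.34-fold higher in progenitor than in niche libraries (adjusted p = 0.00493). Progenitor replicate 1, at 6.94 RPKM, carried much of that mean: without it the mean was 1.73 RPKM and the bounds 5.67-fold and 3.61-fold. Sums of 12 fibroblast and meninges genes were 8.13 to 80.2 in stem libraries, 124 to 312 in progenitor libraries and 102 to 234 in niche libraries, and their part in these results was not tested.

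Of 11 tested genes for FGF co-receptors, receptors, calcium handling and targets of the pathway, 3 fell and 2 rose in stem over niche, 2 fell and 1 rose in progenitor over niche, and 0 passed in stem over progenitor (by limma's unadjusted p under 0.05, 1 rose and 3 fell, and voom called 1 lower). Of all tested genes, 21.6%, 11.4% and 7.09% were called in either direction in these 3 contrasts. Atp2b1, a plasma membrane calcium pump, averaged 19.3 ± 8.00 RPKM in stem, 15.4 ± 1.88 in progenitor and 122 ± 65.8 in niche libraries (adjusted p = 4.5e-04 for stem over niche and 4.3e-04 for progenitor over niche). Calb1, a calcium-binding protein also made by mature granule neurons, averaged 0.252 ± 0.201 RPKM in stem, 0.654 ± 0.481 in progenitor and 14.0 ± 11 in niche libraries (adjusted p = 0.00676 for stem over niche and 0.0255 for progenitor over niche, the second up to 0.0858 and lost in 7 of 21 alternatives, among them those without progenitor replicate 1, 2 or 3 or niche replicate 3 or 4). Fgfr3, an FGF receptor also made by astrocytes, averaged 11 ± 3.61 RPKM in stem and 46.4 ± 27.5 in niche libraries (adjusted p = 0.00612). Lctl, a klotho family member, had 0 reads in all niche libraries and averaged 8.56 ± 3.05 RPKM in stem and 3.94 ± 3.02 in progenitor libraries, at least 5.93-fold and 2.73-fold higher than niche (adjusted p = 5.0e-04 and 0.0246, the second up to 0.0943 and lost in 4 of 20 alternatives, 3 of them those without progenitor replicate 2, 3 or 4). Egr1, an immediate early gene that FGF signalling induces, averaged 99.8 ± 48.1 RPKM in stem and 16.8 ± 8.22 in niche libraries and rose in stem over niche (adjusted p = 0.0106).

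The genes whose log2 levels ran most like each of the 4 over the 12 libraries were listed by Pearson r, as a description over 3 shared populations. For Ttr they included S100b, Paqr7, B3galt5 and Fam131a, with r of 0.96 to 0.97. S100b, a calcium-binding protein of astrocytes and ependyma, averaged 13.3 RPKM in stem, 24.2 in progenitor and 235 in niche libraries. For Kl they were Pcdh7, Opcml, Ankrd35, Nlgn3 and Abhd6, with r of 0.94 to 0.97, among them cell adhesion genes of neurons such as Opcml at 1.56 RPKM in stem, 2.11 in progenitor and 13.8 in niche libraries. None of the genes named for Ttr and Kl is on the choroid plexus list. For Ccdc153 they were Sntn, 2310016G11Rik, Gm13589, 3300002A11Rik and Ppp1r36, with r of 0.96 to 0.99. For Sntn they were 2310016G11Rik, Ccdc153, Ppp1r36, Gm13589 and Pnliprp2, with r of 0.95 to 0.99. 3300002A11Rik was at 0 in all stem and niche libraries and averaged 6.34 RPKM in progenitor libraries, so it passed the filter only through the population in which it was high. 2310016G11Rik averaged 0.319 RPKM in stem, 4.80 in progenitor and 0.0608 in niche libraries. For Ccdc153 and Sntn, these r values rest on stem and niche libraries that were mostly under the counting floor.

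Marker sums of other cell types differed between the populations in several orders. The summed level of 10 astrocyte genes was 619 to 1251 in stem libraries, 3616 to 5070 in progenitor libraries and 5218 to 6926 in niche libraries. The sum of 7 oligodendrocyte genes was 149 to 622 in stem libraries, 2225 to 6354 in progenitor libraries and 2653 to 6043 in niche libraries, and that of 6 mural cell genes was 11.8 to 185 in stem libraries, 669 to 1643 in progenitor libraries and 559 to 1770 in niche libraries. The sum of 6 neuroblast genes was 62.7 to 122 in stem libraries, 916 to 2412 in progenitor libraries and 189 to 437 in niche libraries, highest in progenitor as Ccdc153 and Sntn were. The sum of 8 microglia and macrophage genes was 2023 to 7736 in stem libraries, 117 to 233 in progenitor libraries and 2650 to 4924 in niche libraries, an order that none of the 4 genes had. The part of each of these cell types in the levels of the 4 genes was not tested. Egfr, a gene used for the sort, averaged 34.1 ± 6.36 RPKM in stem, 5.60 ± 3.92 in progenitor and 8.51 ± 9.52 in niche libraries.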

How the data were processed

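Per the labels' protocols, cells sorted from fresh dentate gyrus gave column-purified RNA, and 1000 cells' worth was amplified by PCR polymerase before Illumina library preparation. The authors deposited 1 table of 10749 Ensembl genes on a log2 scale, which was read as log2(RPKM + 1). Per the submitters' processing notes the build was GRCm38 (mm10). Aligner, counter and strand setting: not given in the sources used here. With the log undone, 100% of values were whole reads within 1e-05 reads, and totals ran from 7597256 to 22854036. The exon length was the annotated one for 1233 genes and was found from the values for 9277, where wholeness is the weaker check. No sample column was left unmapped, and 10579 identifiers matched a symbol.

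Since the deposited values are log2 RPKM and not counts, limma 3.58.1 (R 4.3.3) was used with intensity trend and robust spread. It was fitted with 1 mean per population over all 12 libraries to log2(RPKM/TMM factor + 1). Genes needed 10 reads per median library (a CPM of 0.767) in at least 4 libraries and 15 reads in total, which left 8361. P-values were adjusted by Benjamini-Hochberg at 0.05, two-sided, and fold changes on this scale understate those of low genes. In simulated data with true log2 changes of 1, the method called 8% of changed genes in stem over progenitor, 14% in stem over niche and 6% in progenitor over niche. With true log2 changes of 3 it called 81%, 79% and 80% in the same order, with 8, 7 and 2 false calls. A gene that was not called may therefore still differ. The 4 genes and all 5 pathway lists were chosen with earlier results of these data known. Named were the 4 genes, up to 6 called genes per list and contrast with the largest fold change (other called ones of the shorter lists may appear), fixed defining genes, the 5 most correlated genes per member, Egfr and marker lists. Calml4, Dynlrb2 and Rsph4a were named after their values were seen. Some genes that the rule names are not reported here. Alternatives were other scalings, pseudocounts of 0.1 and 4 RPKM, no filter, voom on the recovered reads, only the 2 groups compared, a replicate block and leaving libraries out. Replicate pairs differed by far more than sampling noise (chi-square per degree of freedom of at least 38.5 for stem, 44.4 for progenitor, 117 for niche), so each library counted as 1 replicate. Replicate numbers were not taken to pair samples. The labels name no batch.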

Additional observations from a re-analysis of the deposited data

Results flagged for a closer look

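On the log2 scale, 4 of 18 groups of 4 values held a library far from the others, judged by the gap to the nearest library over the whole range (Dixon's 95% limit for 4 samples), and chance alone gives about 1 such group in 20. Stem replicate 2 stood apart for both cilia genes: Ccdc153 was at 1.51 RPKM there, with 0 to 0.0857 in the other stem libraries, and Sntn was at 0.909 RPKM, with 0 to 0.0754 in the others. Progenitor replicate 1 stood apart for both list sums. Its choroid plexus genes other than Ttr and Kl summed to 537 RPKM, with 249 to 279 in the other progenitor libraries, although its own Ttr (77.8 RPKM) and Kl (0.0351 RPKM) were the lowest of that population. Its ependyma and motile cilia genes other than Ccdc153 and Sntn summed to 329 RPKM, with 228 to 243 in the others, and its Ccdc153 (22.5 RPKM) and Sntn (5.82 RPKM) were the highest of that population. On the linear RPKM scale 6 groups did, the 2 further ones being Kl in niche replicate 3 (26.9 RPKM) and Ccdc153 in progenitor replicate 1. This scale was tried after the values had been seen.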

How the results depend on the processing

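None of the 1196 alternative values of named list genes reversed, and 125 fell short of the threshold; 40 of 58 calls held in all alternatives run, those of Kcne2, Krt18, Slc4a10, Car12 and Ppp1r36 among them. Of the 4 genes, Ttr ran from -8.11 to -7.06 (stem over niche), and 4 stem over niche differences of Ccdc153 and Sntn changed sign, all between -0.69 and -0.04. Kl ran from -6.12 (voom) to -1.51 (pseudocount of 4 RPKM) in stem over niche. voom on the reads gave Sntn 4.26 and Ccdc153 5.91 in progenitor over niche, a pseudocount of 4 RPKM 0.79 and 1.65. Scaling by totals alone shifted the median of all genes by 0.49 (stem over niche) and 0.47 (progenitor over niche), and gave 2018 higher and 586 lower genes in stem over niche (912 and 896 with TMM) and 1525 and 314 in progenitor over niche (474 and 482 with TMM, 1839 in all). Using only the 2 groups compared gave 1418 called genes for stem over progenitor and 539 for progenitor over niche (593 and 956 in all libraries).

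Of the libraries left out singly, niche replicate 1 raised the 3 counts most. Without it and progenitor replicate 1, 1115, 3000 and 1986 genes were called for stem over progenitor, stem over niche and progenitor over niche; without niche replicate 1 alone, 1093, 2489 and 1642. Leaving out each library in turn gave 355 to 1093, 1272 to 2489 and 535 to 1642. Choroid plexus calls then ran from 2 to 5 (lower, stem over progenitor), 13 to 16 (lower, stem over niche), 1 to 3 (higher, progenitor over niche) and 6 to 10 (lower, progenitor over niche). Without both libraries the last pair was 1 and 11; the pseudocount of 4 RPKM gave 3 lower for stem over progenitor, and 2 groups 1 higher for progenitor over niche.

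Cilia calls moved more. Lower in stem over progenitor (2) became 1 with median of ratios or a pseudocount of 4 RPKM, 7 with 2 groups, 4 without both libraries and 1 to 4 with each left out. Higher in stem over niche (1) became 6 with library size, 2 with either pseudocount, 0 without the filter or with 2 groups, 4 with voom, 5 without both and 0 to 3 with each left out. Lower in stem over niche (2) became 4 without both and 2 to 4. Higher in progenitor over niche (3) became 5 with library size or voom and 1 to 4. Lower in progenitor over niche (0) became 1 without both and 0 to 1.

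A replicate block gave 607, 1815 and 945 called genes, 1 cilia gene lower in stem over progenitor and 3 higher in stem over niche. Same-numbered libraries correlated at -0.13 to 0.21, with 2 of 12 pairs over 0.1. In 4 of the 12 pairs the same number was the best match. Correlations this low did not show pairing by number, but they cannot exclude it. Levels under 3 reads set no order. The cause of these shifts was not tested.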
